A study of Mus musculus with 10 samples.

Results

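Midlobular hepatocytes are the liver cells that lie between the layers around the central vein and those around the portal vein. They were represented by 6119 of 18378 single hepatocytes, chosen by a rule on their own expression. Within each library the cells were ordered by a score, in which z-scored expression of 8 pericentral landmark genes (averaged) was subtracted from that of 8 periportal ones. The order was divided into 3 equal zones, and cells of the middle zone with fewer than 5 UMIs of Glul were retained. A UMI is 1 tagged RNA molecule. The Glul condition removed 8 cells, and 6130 pericentral-zone and 6121 periportal-zone cells were the comparison.

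The cells came from C57BL/6 male mice aged 3 months on chow, by collagenase perfusion and a Percoll gradient. There were 3 libraries at zeitgeber time (ZT, hours in the light-dark cycle) 0, 2 at ZT6, 3 at ZT12 and 2 at ZT18, lettered A to C, from untreated animals apart from anaesthesia. The labels name no genotype, and leave the number of mice behind a library open, so the library is the unit of every p-value below. In tests between zones, fitted with the library as a block, p-values measure the spread of within-library zone differences. In rhythm tests of the middle zone they measure the spread of levels between libraries. A library gave 237 (ZT12A) to 953 (ZT0B) middle-zone cells and 425210 to 2260405 UMIs from them. Levels are given as CPM, a gene's share of all UMIs in the summed cells of 1 zone of 1 library on the usual CPM scale.

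Blood in the liver lobule flows from the portal to the central vein, and hepatocytes along this path divide their work. Periportal cells are known for urea synthesis, histidine breakdown and secretion of plasma proteins, and pericentral cells for glutamine synthesis and for cytochrome P450 enzymes. Genes highest between both ends are fewer. The best known is hepcidin (Hamp), a peptide hormone of hepatocytes that closes the iron exporter ferroportin and so limits iron entry into blood. Hamp2 is its close copy beside it in the mouse genome. Igfbp2 encodes a secreted protein that binds insulin-like growth factors, and Cyp8b1 encodes the sterol hydroxylase that steers bile acid synthesis to cholic acid. These 4 genes were the markers set for midlobular cells. They had been named with results of these data known, so their values describe the label, and the p-values given for them are no independent evidence for it.

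The hepcidin copies share their upstream sequence as well as their transcripts, and the sequences are shown because the levels of both copies in the middle zone are described below. The 250 bases before each transcription start are RefSeq sequence of GRCm38.p6, 5′ to 3′ on the minus strand of chromosome 7. They cover chr7:30944030-30944279 for Hamp and chr7:30924182-30924431 for Hamp2. Capitals mark matches to GGCGCC, the core of the element through which bone morphogenetic protein signals act on hepcidin, and to TTCNNNGAA, the consensus of STAT factors. Both strands were searched, and both motifs read the same on either strand.
Hamp: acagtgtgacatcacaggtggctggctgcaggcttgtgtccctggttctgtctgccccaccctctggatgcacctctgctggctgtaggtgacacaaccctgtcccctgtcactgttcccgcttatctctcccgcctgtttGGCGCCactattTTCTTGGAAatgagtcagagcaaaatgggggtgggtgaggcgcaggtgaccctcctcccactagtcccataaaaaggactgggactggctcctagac
Hamp2: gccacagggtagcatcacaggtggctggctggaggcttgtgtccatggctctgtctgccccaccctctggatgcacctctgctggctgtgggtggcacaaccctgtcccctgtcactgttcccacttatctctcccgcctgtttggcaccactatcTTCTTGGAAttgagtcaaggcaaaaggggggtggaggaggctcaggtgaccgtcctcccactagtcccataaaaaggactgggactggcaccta

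The Hamp window held GGCGCC at bases 109 to 104 before the start and TTCNNNGAA at bases 97 to 89. The Hamp2 window held TTCNNNGAA at bases 94 to 86, and the letters GGCGCC were not in it. Of 32851 mouse promoter windows of the same length, 9.59% held GGCGCC and 7.02% held TTCNNNGAA. A match is a description of letters and does not show that a factor binds. Over 253 aligned positions the windows were identical at 227 (89.72%). The longest annotated transcripts of both genes were identical at 388 of 437 aligned positions (88.79%), with a longest identical run of 87 bases. Reads may therefore have been split between Hamp and Hamp2, and the level of each is uncertain to that extent.

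The landmarks show what the rule selected and are given without a test. Cyp2e1, a pericentral P450, ranged over libraries from 1821 to 7060 CPM in the pericentral zone (median 3688) and from 45.2 to 288 CPM in the periportal zone (median 85.1). In middle-zone cells it measured 197 CPM in ZT18A, a median of 819 and 3623 CPM in ZT12C. Cyp2f2, a periportal P450, had medians of 75.4, 709 and 1219 CPM in the pericentral, middle and periportal zones, with 233 CPM (ZT0C) to 1303 CPM (ZT18A) in the middle. Both landmarks lay between their outer levels, and the middle zones of different libraries were not equally far along the axis.

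The boundary of the class is soft. Over libraries, the cell just inside the middle zone had a score of -0.766 to -0.245 on the pericentral side and the first cell outside it -0.767 to -0.247. On the periportal side the last cell inside scored 0.561 to 0.847 and the first outside 0.562 to 0.851. Between 13.83% and 23.49% of middle-zone cells lay within 0.1 score units of a boundary. Zones were also taken once from the odd-numbered and once from the even-numbered landmarks. Of the middle-zone cells of the odd order, 46.97% fell in the middle zone of the even order. The shares were 74.94% for pericentral-zone and 64.43% for periportal-zone cells. By this measure a middle-zone cell is less securely placed than a cell at either end. The middle zone has a boundary on both sides, unlike the outer zones, so a lower share was built into the comparison. The class is a range of the score.

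Middle-zone cells carried the markers of hepatocytes. The 10 hepatocyte genes (Alb, Apoa1, Ttr and others) summed to 45490 to 92560 CPM over libraries, and 10 of 10 were detected. The macrophage list summed to at most 13.5 CPM, with Clec4f, Adgre1, Csf1r, C1qa, C1qb and C1qc at 0, and 1 of 7 lymphocyte genes had a UMI, with a sum of at most 1.21 CPM. The 13 endothelial genes summed to 63.7 to 86.7 CPM, with Clec4g, Ptprb and Bmp6 at 0. The neutrophil list summed to at most 1.95 CPM and the stellate list to at most 21.4 CPM, with Col1a1 and Pdgfrb at 0. The cholangiocyte list reached 67.4 CPM, with Krt19 and Epcam at 0, and the cycling list 43.9 CPM. Their part in the results was not tested. Median UMIs per cell in the middle zone were 1608 to 2557 over libraries and were the lowest of all zones in 5 libraries. The mitochondrial share, 11.7% to 24.8% in the median cell, lay between both outer zones in all 10 libraries. Transcripts kept in the nucleus were graded too: Malat1 measured 1224 ± 1008, 1655 ± 1246 and 2631 ± 2419 CPM from the pericentral over the middle to the periportal zone (SD, n = 10). The 6 nuclear RNAs listed summed to 1121 to 4974 CPM in the middle zone (median 1616), with ZT12C the highest. Of the 5 tested, Malat1, Neat1 and Kcnq1ot1 passed against both ends, as did 410 of all 8894 genes tested. Of 16 tested genes of the immediate early and stress response, Fos, Junb and Btg2 were above the pericentral zone, Hspa1b was below it, and Btg2 was below the periportal zone. Over all genes tested, 7.07% were above and 7.34% below the pericentral zone, and 2.82% were below the periportal zone. The part of these RNAs in the results was not tested.

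Igfbp2 was the marker that peaked most evenly in the middle. In middle-zone cells it measured 107 CPM in ZT18A, a median of 213 CPM and 377 CPM in ZT12C, with a mean of 221 ± 88.6 CPM (SD, n = 10). The pericentral zone had 86.7 CPM (ZT18A) to 160 CPM (ZT12B) with a mean of 120 ± 26.5 CPM. The periportal zone had 93.8 CPM (ZT18B) to 282 CPM (ZT0C) with a mean of 161 ± 65.1 CPM. The ranges of the zones overlapped between libraries, but within each of the 10 libraries the middle zone was the highest. The fitted log2 difference was 0.84 ± 0.11 (SE) from the pericentral zone (edgeR adjusted p = 1.26e-07) and 0.40 ± 0.11 from the periportal zone (edgeR adjusted p = 0.0158).

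Hamp was highest in the middle zone in 7 of 10 libraries. Its middle-zone level in the ZT0 libraries was 2089 CPM in A, 227 in B and 541 in C. The ZT6 libraries had 561 and 702 CPM, the ZT12 libraries 609, 842 and 415 CPM, and the ZT18 libraries 373 and 314 CPM. ZT0A stood apart from the other 9, in its outer zones as well (1810 and 1557 CPM). ZT18A and ZT18B were not above their pericentral zones (426 and 364 CPM), and ZT0C was not above its periportal zone (552 CPM). Means were 470 ± 500 CPM pericentral, 667 ± 532 CPM middle and 506 ± 407 CPM periportal (SD, n = 10). The log2 difference was 0.65 ± 0.14 from the pericentral zone (SE; edgeR adjusted p = 5.01e-04) and 0.35 ± 0.14 from the periportal zone, where it missed the threshold (edgeR adjusted p = 0.147). In the cells at or below the median mitochondrial share, the smaller of both differences was -0.046.

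Hamp2 was above the periportal zone in 10 of 10 libraries and above the pericentral zone in 5. Its middle-zone level was 274, 129 and 255 CPM at ZT0, 288 and 453 CPM at ZT6, 202, 91.1 and 136 CPM at ZT12, and 26.3 and 39.8 CPM at ZT18. Both ZT18 libraries were the lowest of the 10 and both ZT6 libraries the highest. The pericentral zone had 48.6 CPM (ZT12C) to 333 CPM (ZT0A). The log2 difference was 0.71 ± 0.17 from the periportal zone (SE; edgeR adjusted p = 0.00341) and 0.42 ± 0.16 from the pericentral zone (edgeR adjusted p = 0.0843). The libraries in which the pericentral zone was the higher were ZT0A, ZT0B, ZT12B, ZT18A and ZT18B.

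Cyp8b1 went against its use as a midlobular marker at this resolution. Its mean level went from 203 ± 52.3 CPM in the pericentral zone over 182 ± 57.7 CPM in the middle to 144 ± 53.5 CPM in the periportal zone (SD, n = 10), and the middle was the highest zone in 3 libraries (ZT0C, ZT12C and ZT18B). The middle-zone value was 125, 228 and 279 CPM at ZT0, 216 and 153 CPM at ZT6, 101, 122 and 180 CPM at ZT12, and 176 and 236 CPM at ZT18. The middle exceeded the periportal zone in all 10 libraries, by 0.32 ± 0.08 (log2, SE; edgeR adjusted p = 0.0044), and differed from the pericentral zone by -0.11 ± 0.07 (edgeR adjusted p = 0.398). Against each end on its own, Igfbp2 thus passed at both, Hamp at the pericentral end, and Hamp2 and Cyp8b1 at the periportal end. Since the data go against Cyp8b1, the cells are called below by their place, the middle zone.

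**Figure D1:**
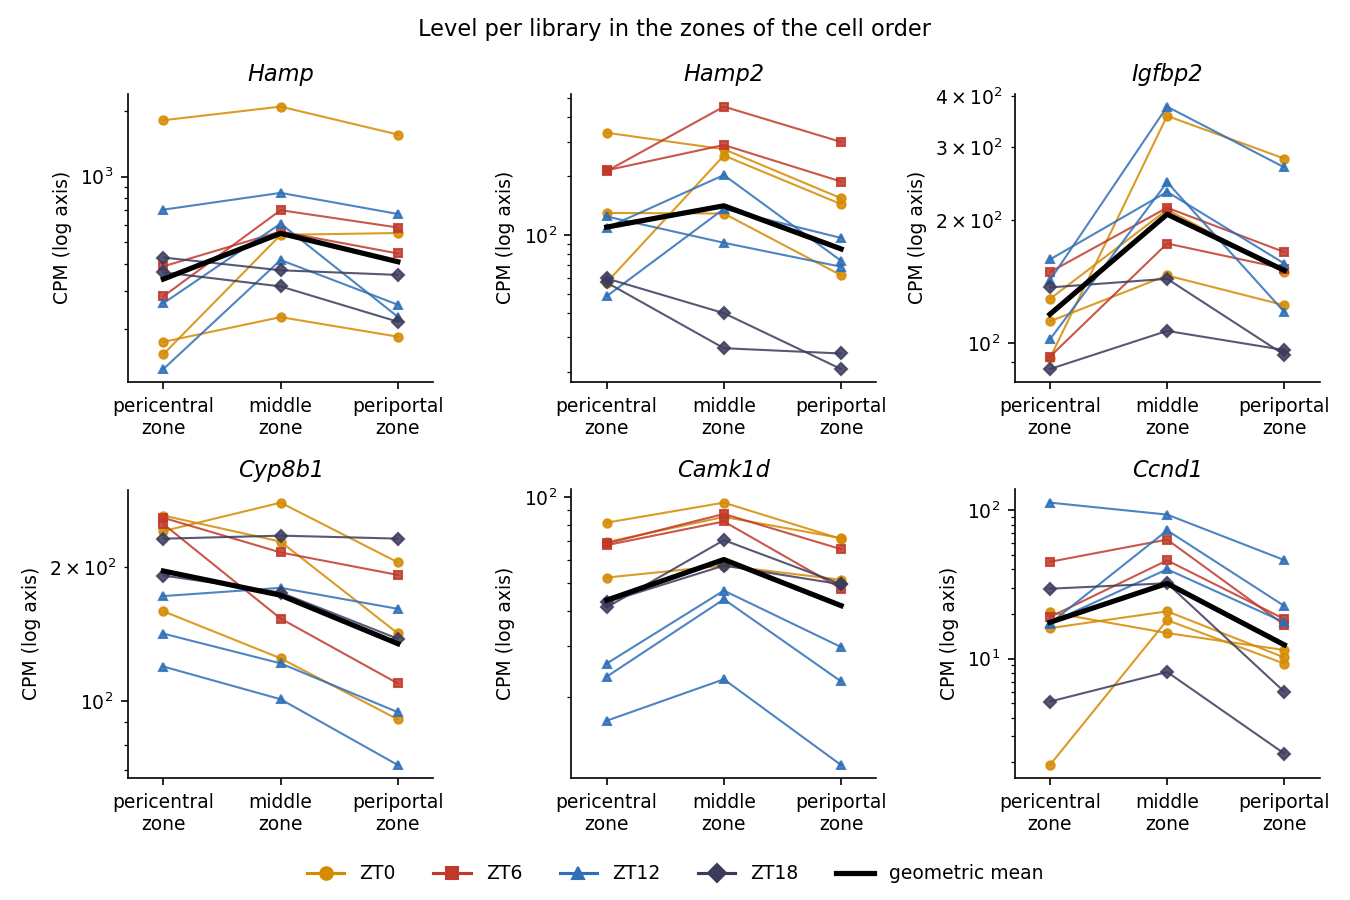
Level in CPM (log axis) of 6 genes in the pericentral, middle and periportal zone of the cell order; each thin line is 1 of 10 libraries, coloured by time of day, and the black line is their geometric mean. Igfbp2 and Camk1d lines peak in the middle in 10 of 10 libraries, Hamp in 7, Hamp2 in 5, Cyp8b1 in 3 and Ccnd1 in 8.

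A finer division showed where in the middle these genes were highest. When each library's order was cut into 8 equal layers, counted from the central side, Igfbp2 went from 68.1 ± 10.1 CPM (SE over 10 libraries) in layer 1 to 234 ± 36.6 CPM in layer 5 and stood at 147 ± 15.6 CPM in layer 8. Hamp was at 333 ± 115 CPM in layer 1, 678 ± 147 CPM in layer 5 and 466.1 ± 117 CPM in layer 8. Hamp2 was highest in layer 4, at 201 ± 44.6 CPM, with 81.3 ± 19.9 CPM in layer 1 and 89.4 ± 19.8 CPM in layer 8. For Hamp2 the outermost pericentral layer had a lower mean than layer 2, at 154 ± 39.9 CPM, which lies in the same zone.

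Cyp8b1 was highest in layer 3, at 215 ± 17.7 CPM, against 194 ± 17.9 CPM in layer 1 and 138 ± 16.1 CPM in layer 8. Layer 3 was its highest layer in 7 libraries, and its profile was a plateau on the pericentral side with a decline towards the portal side. The highest layer of Hamp was layer 3, 5 or 6 in all 10 libraries, and that of Igfbp2 lay between layers 3 and 6 in all 10. These profiles describe the order and were not tested.

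Of 4289 genes with at least 20 CPM, 13 (0.303%) had their highest layer between layers 3 and 6 in all 10 libraries, and 63 (1.47%) in at least 9. Genes without any profile can meet these rules too, and their share was not computed. Besides Hamp and Igfbp2, the 13 were Mbl2, Camk1d, Ccnd1, Acp5, Mid1ip1, Creld1, Map3k7, Zfp707, Bc089597, Eef1a1 and Rpl7. Mbl2 encodes mannose-binding lectin, a secreted pattern receptor of innate immunity, Mid1ip1 a regulator of lipid synthesis, and Eef1a1 and Rpl7 parts of the translation machinery. Mbl2 measured 358 ± 27.1 CPM in layer 1, 400 ± 32.0 CPM in layer 3 and 323 ± 18.9 CPM in layer 8, a shallower profile than that of Igfbp2. Acp5, Mid1ip1 and the others of these 13 that no later test names were picked after their profiles had been seen.

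**Figure D2:**
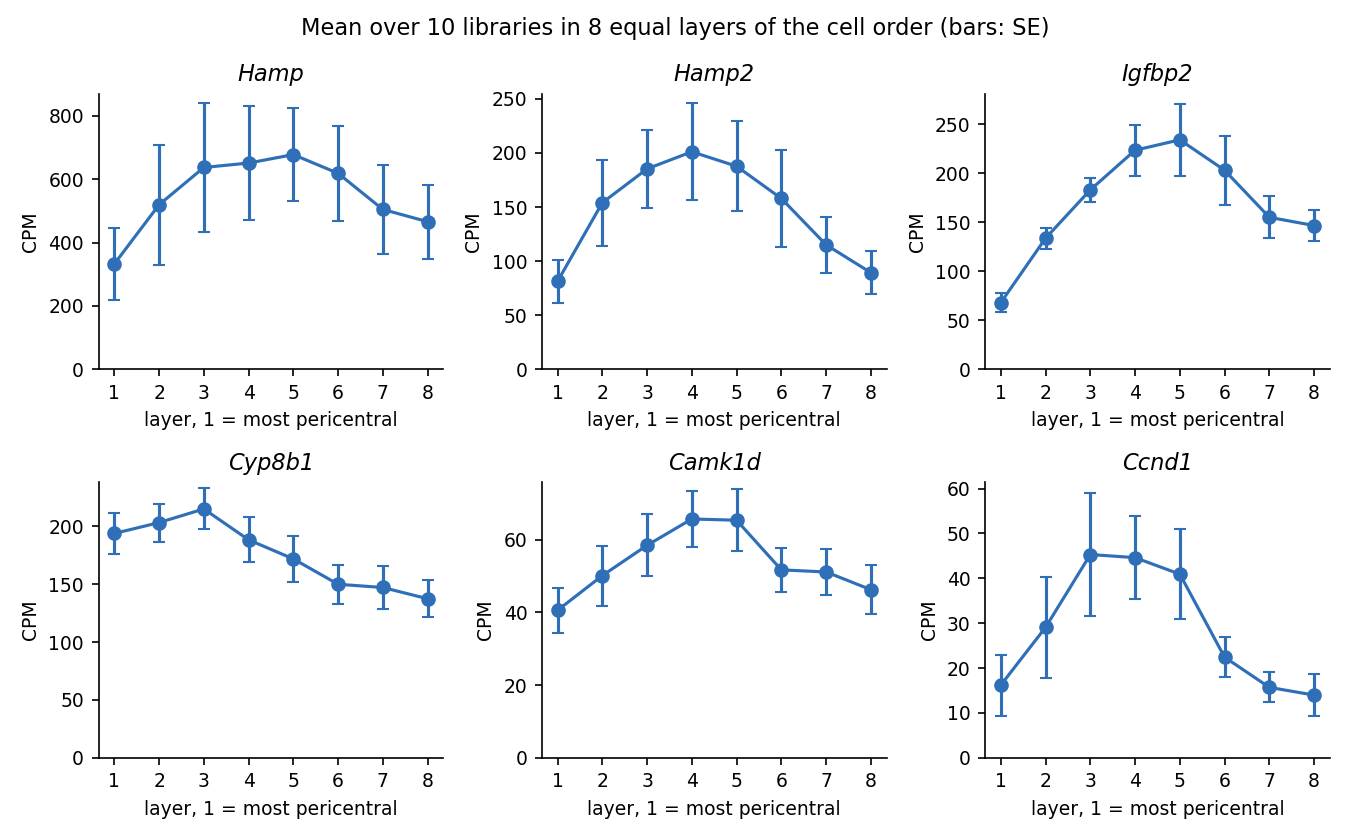
Mean level in CPM in 8 equal layers of the cell order, layer 1 nearest the central vein, with the SE over 10 libraries as bars. Hamp and Igfbp2 are highest in layer 5, Hamp2 and Camk1d in layer 4, and Ccnd1 and Cyp8b1 in layer 3. Cyp8b1 declines from 215 to 138 CPM towards layer 8.

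The main question was which genes are higher or lower in the middle than at both ends. UMI sums of each library and zone (30 sums) were fitted with edgeR, with the library as a block. For each gene the larger of its p-values against both outer zones was used if both differences had the same sign, and these were adjusted over 8894 genes by the Benjamini-Hochberg method. The 16 landmarks and Glul were left out. By this test 4 genes (0.045%) were higher in the middle than at both ends: Camk1d and the haemoglobin genes Hba-a1, Hba-a2 and Hbb-bs. None of 8894 (0.0%) was lower. Of the 4 markers, Igfbp2 had an edgeR adjusted p of 0.895 in this joint test, and Hamp, Hamp2 and Cyp8b1 of 1. At an unadjusted p under 0.05 there were 39 higher (0.438%) and 29 lower (0.326%), and DESeq2 called 0 in either direction.

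Camk1d encodes a calcium and calmodulin dependent protein kinase. In middle-zone cells it measured 57.6, 95.6 and 85.2 CPM at ZT0, 87.3 and 82.1 CPM at ZT6, 47.0, 23.0 and 43.9 CPM at ZT12, and 57.5 and 70.7 CPM at ZT18. The pericentral zone ranged from 16.5 CPM (ZT12B) to 81.3 CPM (ZT0B) and the periportal zone from 11.5 CPM (ZT12B) to 71.8 CPM (ZT0C). Levels differed more between libraries than between zones, yet the middle was the highest zone in 10 of 10 libraries. The log2 difference was 0.44 ± 0.08 from the pericentral and 0.40 ± 0.08 from the periportal zone (SE; edgeR adjusted p = 0.0158 for both together). The call was lost without ZT0B, ZT6A, ZT6B, ZT12B or ZT18B, with edgeR adjusted p from 0.0648 to 0.211, while the smaller of both differences remained between 0.37 and 0.41. With library size alone in place of TMM the edgeR adjusted p was 0.0543, and it was 0.991 to 1 with odd or even landmarks alone, with the score on thinned cells and in 4 subsets of cells by UMIs or mitochondrial share.

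The haemoglobin calls rested on 1 cell of ZT18B. In that library the middle-zone sums held 202 UMIs of Hba-a1, 198 of Hba-a2 and 470 of Hbb-bs, of which this cell gave 198, 191 and 448. Hba-a1 measured 164 CPM in the middle zone of ZT18B and at most 1.23 CPM in that of the other 9 libraries. Over all cells, 2 held 10 or more UMIs of Hba-a1. Without those cells 0 genes were called higher than both ends. Camk1d then had an edgeR adjusted p of 0.068 with a smaller difference of 0.40.

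If each contrast was adjusted over all genes on its own and both had to pass, 7 genes (0.0787%) were higher than both ends and 0 (0.0%) lower. This rule was chosen after seeing the data. It added Igfbp2, Hbb-bt and 1810008I18Rik, a RIKEN transcript at 119 ± 51.1 CPM (SD, n = 10) in the middle zone, to the 4. By library order alone, 38 genes (0.427%) were above both ends in at least 8 of 10 libraries and 21 (0.236%) below both. The shares to be met without any difference between zones were not computed. Those of the 38 with an unadjusted p under 0.05 included Ccnd1, Mbl2, Gamt and Pemt. Gamt and Pemt encode methyltransferases that make creatine and phosphatidylcholine. Gamt measured 215 ± 49.9, 242 ± 67.7 and 214 ± 65.2 CPM in the pericentral, middle and periportal zone, so its difference was small beside the spread of libraries. These genes were chosen after their values were seen, and none passed the adjusted test.

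Ccnd1 encodes cyclin D1, which drives the entry of cells into division. In the middle zone it measured 20.8, 14.9 and 18.2 CPM at ZT0, 63.4 and 45.9 CPM at ZT6, 40.0, 93.4 and 73.1 CPM at ZT12, and 32.2 and 8.12 CPM at ZT18. The middle was above the periportal zone in 10 of 10 libraries, by 1.26 ± 0.18 (log2, SE; edgeR adjusted p = 2.15e-06). It was above the pericentral zone in 8, all but ZT0B and ZT12B, by 0.44 ± 0.16 (edgeR adjusted p = 0.0635). Of the 9 genes listed as markers of cycling cells, 2 were abundant enough to be tested. Of these Stmn1, which encodes the microtubule regulator stathmin, was above the periportal zone as well, at 8.71 ± 4.07 against 4.23 ± 2.25 CPM (log2 difference 0.83 ± 0.23; edgeR adjusted p = 0.0154). Its difference from the pericentral zone was -0.35 ± 0.19 (edgeR adjusted p = 0.249). The other tested cycling gene passed against neither end, and 3.26% of all genes tested were above the periportal zone. Sums of the 9 cycling genes had medians of 24.4, 23.3 and 18.8 CPM in the pericentral, middle and periportal zone. The middle had the highest sum in 3 libraries and the lowest in 4.

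**Figure D3:**
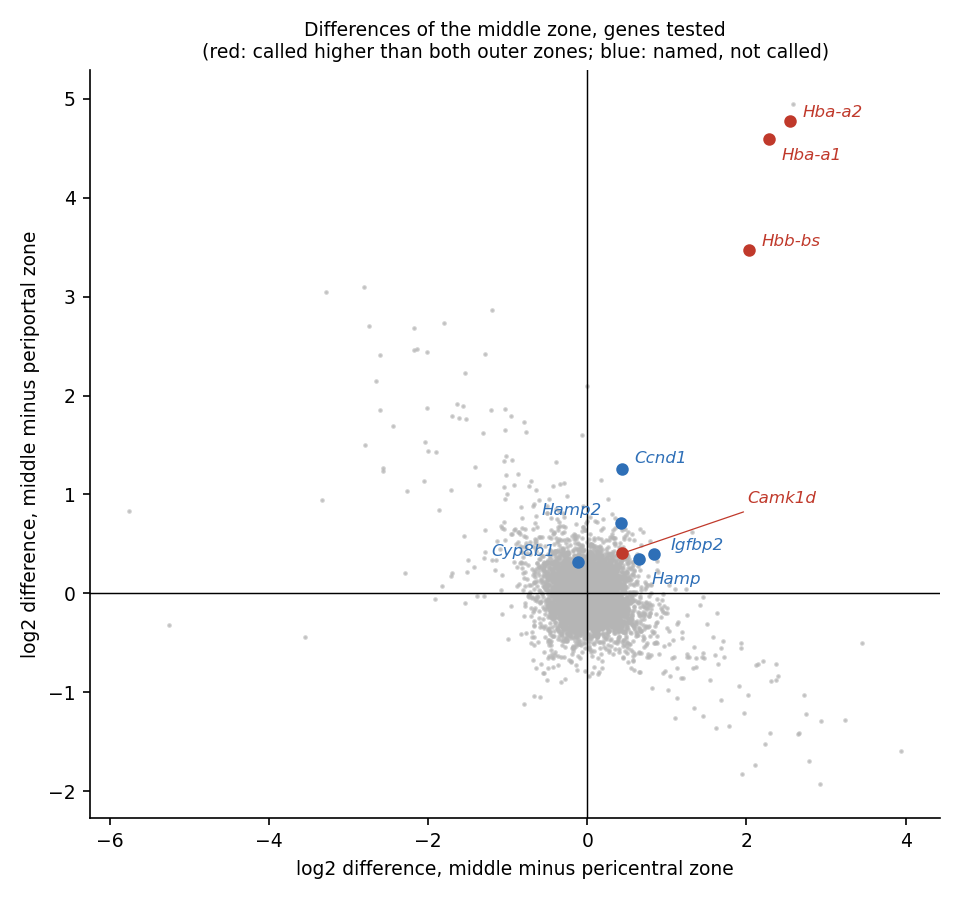
Log2 difference of the middle from the pericentral zone (x axis) and from the periportal zone (y axis) for the 8894 genes tested, 1 grey dot each. Genes far from the centre run mostly from upper left to lower right, where the middle lies between both ends; the 4 genes called higher than both ends are red, and Hamp, Hamp2, Igfbp2, Ccnd1 and Cyp8b1, which were not called, are blue.

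Genes that differed from both ends nearly all lay between them, along the axis by which the cells were ordered. Against the pericentral zone 1282 genes differed (14.4%), 629 higher (7.07%) and 653 lower (7.34%) in the middle. Against the periportal zone 541 differed (6.08%), 290 higher (3.26%) and 251 lower (2.82%). With library size alone, 31.31% of 1450 calls were above the pericentral zone, against 49.06% of the 1282, and 67.76% of 608 above the periportal zone, against 53.6% of the 541. The balance of directions therefore depends on the scaling. Of 410 genes called against both ends, 403 had opposite signs, that is, lay between the ends. The fitted level lay between the ends in 4879 of the 8894 genes, above both in 2045 and below both in 1970, called or not.

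Genes with a known place, none of them a landmark, mostly followed this pattern. The cells were ordered by other genes of the same axis, so this describes the order and is no independent support for it. Of the pericentral list 9 were tested, of which 9 were below the pericentral zone and 7 above the periportal zone. Rhbg of this list was fitted below both ends (log2 differences -3.55 and -0.44) and did not pass at the periportal end. Of 11 periportal genes tested, 11 were above the pericentral and 8 below the periportal zone. Over all genes tested, 7.34% were below and 7.07% above the pericentral zone, and 3.26% above and 2.82% below the periportal zone. Aldh1b1, a mitochondrial aldehyde dehydrogenase, measured 2.84 ± 2.14, 25.8 ± 17.97 and 99.6 ± 29.4 CPM (SD, n = 10) from the pericentral over the middle to the periportal zone. Aldh3a2, the fatty aldehyde dehydrogenase, ran the other way at 256 ± 77.7, 58.8 ± 35.9 and 7.91 ± 4.17 CPM. Aldh3a2 was chosen after its values were seen.

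The middle was not the exact midpoint. Over the 2404 genes (27.0%) that differed between both ends, the middle lay at a median of 60.38% of the way from the pericentral to the periportal level on the log2 scale, with quartiles of 46.03% and 74.65%. Over the 319 of them that differed at least 2-fold, the median was 60.23%. By library it ranged from 40.9% in ZT0C and 46.37% in ZT12A to 71.86% in ZT18B and 81.49% in ZT18A. The middle zone of ZT18A thus lay nearest the periportal end, and that of ZT0C leaned to the pericentral end. Both ZT18 libraries were among those nearest the portal end.

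The libraries differed in the Glul content of their pericentral zone. Cells with 5 or more UMIs of Glul, the enzyme of the cells around the central vein, made up 0.839% of the pericentral zone in ZT18B, 3.21% in ZT18A, 24.04% in ZT0C and 34.21% in ZT12C. Summed Glul in that zone was 173 CPM (ZT18B) to 3843 CPM (ZT12C), with a median of 546 CPM. Whether the capture of cells, the tissue or the level of Glul per cell differed was not tested.

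The difference of the middle from the pericentral zone was set beside this content as a description. Glul entered the choice of cells, and the pericentral zone enters both quantities, so no test is given. Hamp, Hamp2 and Igfbp2 had their lowest mean in layer 1, where Glul was highest. In the 3 libraries with the most Glul, ZT12C, ZT0C and ZT12A (3843, 2096 and 1756 CPM), the log2 difference of Hamp was 1.65, 1.81 and 1.21. In ZT18B, ZT0B and ZT0A, those with the least (173, 369 and 374 CPM), it was -0.21, 0.37 and 0.21. For Igfbp2 the differences were 1.398, 1.95 and 1.26 against 0.07, 0.72 and 0.37, and for Hamp2 1.47, 2.14 and 0.89 against -0.58, -0.01 and -0.28. Hamp2 had -1.09 in ZT18A with 390 CPM of Glul, and -0.44 in ZT12B with 620 CPM. Other differences were less ordered by Glul. Cyp8b1 had 0.06, 0.21 and -0.24 against 0.02, -0.19 and -0.35. Camk1d had 0.87, 0.29 and 0.83 against 0.77, 0.23 and 0.14. From the periportal zone, Hamp differed by 0.68, -0.03 and 1.41 against 0.53, 0.30 and 0.42.

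The libraries carry index wells with the numbers 3 (G3 and 3A), 4, 5 and 7 per the labels, in groups of 2, 2, 2 and 4. Within number 3, ZT0A and ZT12A had 374 and 1756 CPM of Glul and Hamp differences of 0.21 and 1.21. Within number 5, ZT0C and ZT12C had 2096 and 3843 CPM and differences of 1.81 and 1.65, and within number 4, ZT18A and ZT18B had 390 and 173 CPM and differences of -0.19 and -0.21. Among the 4 libraries with the number 7, the Hamp difference was 0.37 (ZT0B), 0.53 (ZT6A), 0.25 (ZT12B) and 1.31 (ZT6B) at 369, 472, 620 and 683 CPM of Glul. The library with more Glul had the larger Hamp difference within numbers 3 and 4, and not within number 5. Within number 7, ZT6B had the most Glul and the largest difference, and ZT12B the second most Glul and the lowest difference. The part of the Glul content in these differences was not tested.

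**Figure D4:**
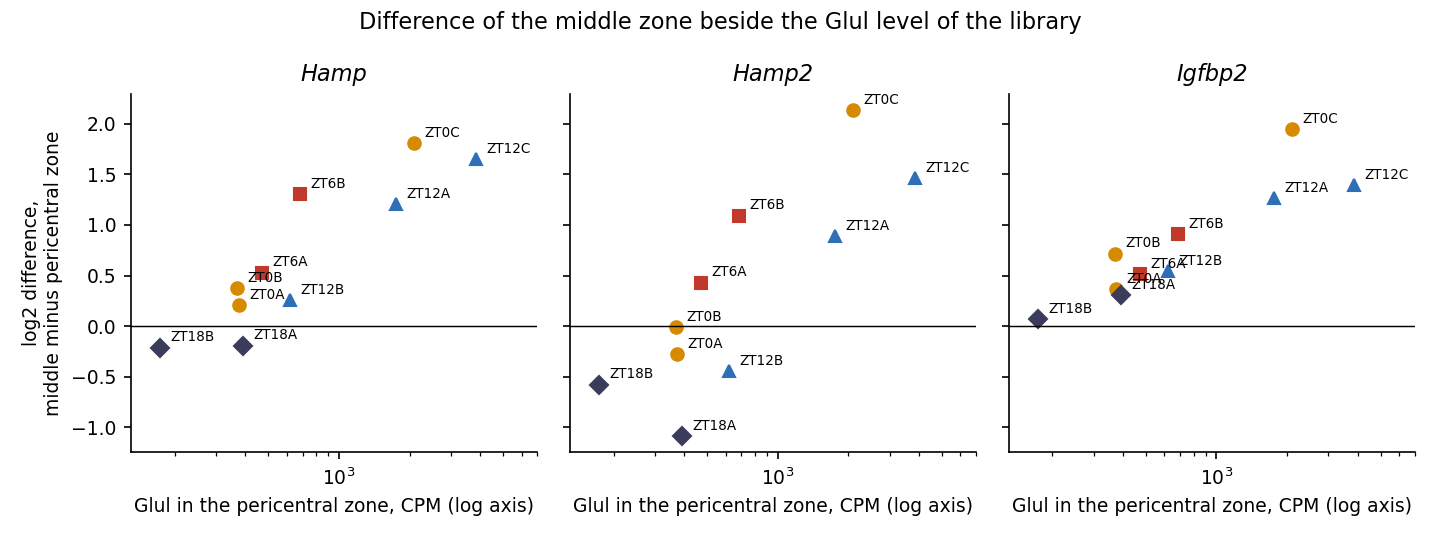
Log2 difference of the middle from the pericentral zone in each library (y axis) against the Glul level of the pericentral zone in CPM (log x axis), for Hamp, Hamp2 and Igfbp2. The Hamp difference runs from -0.21 in ZT18B, with 173 CPM of Glul, to 1.65 in ZT12C, with 3843 CPM, and is largest in ZT0C at 1.81.

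In an alternative chosen after seeing the data, z-scores and zones were taken over the cells of all libraries together, so that a landmark's level in the library counted and both cuts were the same everywhere. The middle class then held 21.42% (ZT12C) to 45.84% (ZT0A) of a library's cells. By the joint test 7 of 8895 genes were higher than both ends and 0 lower, with 52 and 39 at an unadjusted p under 0.05. Hamp was called, with differences of 0.70 ± 0.09 and 0.49 ± 0.09 (log2, SE; edgeR adjusted p = 0.00235), and so was Igfbp2, with 0.83 ± 0.07 and 0.50 ± 0.07 (edgeR adjusted p = 2.25e-05). The other 5 were 1810008I18Rik (edgeR adjusted p = 0.00105) and the haemoglobin genes Hba-a1, Hba-a2, Hbb-bs and Hbb-bt.

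With z-scores within each library, as in the main result, and only the cuts shared, 6 genes were called higher. Igfbp2 was called (smaller difference 0.43; edgeR adjusted p = 0.0397), whereas Hamp was not (0.37; edgeR adjusted p = 1). The call of Hamp thus needed z-scores over all libraries, and shared cuts alone did not give it. Camk1d was called with the cuts alone shared (0.37; edgeR adjusted p = 0.0281). It was not called with z-scores over all libraries, where its differences were 0.45 and 0.31 (edgeR adjusted p = 0.258 in the joint test, and 2.37e-05 and 0.00799 against each end on its own). By the rule of each end on its own, 17 genes were higher and 1 lower with z-scores over all libraries. The 17 included Hamp2, Ccnd1, Cdkn1a, Wfdc21 and Fabp5, and the lower one was Ddah1 (-0.18 and -0.23; edgeR adjusted p = 0.0389 and 0.0117). Of these Cdkn1a, which encodes a cell cycle inhibitor, and the others not named by the rule were chosen after their values were seen.

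With z-scores over all libraries, the sums of 1 library were then omitted at a time from the fit. The z-scores and cuts stayed those taken with all libraries, so the choice of cells was not repeated. The edgeR adjusted p was 5.51e-06 to 1.41e-04 for Igfbp2 and 7.08e-04 to 0.0134 for Hamp, and both remained called in 10 of 10 cases. That of Hamp2 was 1.87e-04 (without ZT0A) to 0.984, and it was 0.0599 with all libraries. Without the cells rich in haemoglobin, 3 genes were called, Igfbp2 with edgeR adjusted p = 1.51e-05 and Hamp with 0.00337 among them. Cells of the same score can still differ between times of day, since landmark levels need not be constant over the day. Their part in this was not tested.

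Hepcidin is governed by proteins that read iron and bone morphogenetic protein signals, and 39 genes of hepcidin control and iron handling were listed. Of these 35 were tested: 10 were above the pericentral zone and 1 below it, 2 above the periportal zone and 4 below it, and 0 were higher or lower than both. Over all genes tested the shares were 7.07% above and 7.34% below the pericentral zone, and 3.26% above and 2.82% below the periportal zone. Higher than both were 0.045% of all genes tested and lower than both 0.0%, so the 0 of this list is near the share over all genes. The list's median difference from the mean of both ends was 0.05 on the log2 scale, against 0.01 over all genes tested. Among the regulators, Tmprss6, a protease that lowers hepcidin, was above the pericentral zone at 301 ± 55.0 against 263 ± 52.1 CPM (log2 difference 0.25 ± 0.06, SE; edgeR adjusted p = 0.00105). Neither Hfe, Tfr2 nor Hfe2 (hemojuvelin), parts of the iron sensor on hepatocytes, passed the test against either end. For Hfe2 the differences were -0.09 ± 0.08 and 0.04 ± 0.09.

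The carriers of iron and haem were graded. Trf, transferrin, which carries iron in blood, measured 6854 ± 1543, 8738 ± 1933 and 10390 ± 2165 CPM (SD, n = 10) in the pericentral, middle and periportal zone. Hpx, hemopexin, which binds free haem, measured 1812 ± 579, 3243 ± 937 and 4796 ± 1291 CPM, a middle-zone difference of 0.90 ± 0.07 from the pericentral and -0.62 ± 0.06 from the periportal zone. Ftl1, the ferritin light chain that stores iron, ran the other way, with the middle at -0.19 ± 0.05 and 0.17 ± 0.05 (edgeR adjusted p = 0.00397 and 0.015). Fth1, the heavy chain, had differences of -0.11 ± 0.04 and 0.13 ± 0.04 that did not pass (edgeR adjusted p = 0.115 and 0.0969). Slc40a1, ferroportin, was above the pericentral zone by 0.42 ± 0.08 (edgeR adjusted p = 1.03e-04).

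Targets of bone morphogenetic protein signalling gave no uniform picture. Id2 was above the pericentral zone at 177 ± 82.4 against 146 ± 64.5 CPM (log2 difference 0.33 ± 0.08; edgeR adjusted p = 0.00205). From the periportal zone it differed by 0.02 ± 0.08 (edgeR adjusted p = 0.948). Id3 ran the other way, at 72.2 ± 41.8, 63.7 ± 31.7 and 56.1 ± 33.4 CPM in the pericentral, middle and periportal zone. Its middle-zone differences of -0.10 ± 0.08 and 0.13 ± 0.08 did not pass (edgeR adjusted p = 0.486 and 0.442). Atoh8, at 11.8 ± 6.37 CPM, had differences of 0.36 ± 0.16 and 0.27 ± 0.16 (edgeR adjusted p = 0.142 and 0.442). Smad7 had 6.75 ± 2.05 CPM in the middle against 6.82 ± 3.53 and 6.02 ± 2.10 CPM, near the floor of 3 UMIs, which is 1.33 to 7.06 CPM in middle-zone sums. Smad6 and Id1 were below the filter of 3 CPM, so these targets were not measurable at this depth.

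Of 17 tested genes of insulin-like growth factor and growth hormone signalling, 4 were above and 3 below the pericentral zone, and 3 above and 2 below the periportal zone, against 7.07%, 7.34%, 3.26% and 2.82% of all genes. The median difference from both ends was 0.02. Igf1, the growth factor itself, and Igfals, its partner in blood, were graded towards the portal side: Igf1 measured 938 ± 138, 1144 ± 141 and 1330 ± 236 CPM. Ghr, the growth hormone receptor, was lower in the middle than in the pericentral zone (501 ± 90.3 against 617 ± 144 CPM, edgeR adjusted p = 3.53e-04). Among its binding proteins, Igfbp4 had differences of 0.04 ± 0.04 and -0.02 ± 0.04 that did not pass, and Igfbp1 exceeded the periportal zone by 0.28 ± 0.08 (edgeR adjusted p = 0.0153). Within this list the shape of Igfbp2 was shared by 0 other genes at an adjusted threshold for each contrast. Of all 8894 genes tested, 7 (0.0787%) were higher than both ends by that rule, so a count of 0 is near the share over all genes.

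Of 25 tested bile acid genes, 3 were above and 7 below the pericentral zone, and 7 above and 1 below the periportal zone, against the same 7.07%, 7.34%, 3.26% and 2.82% of all genes. The median difference was 0.05. Cyp7a1, the rate-limiting enzyme, was graded along the axis with means of 235, 108 and 20.3 CPM, and the middle differed by -1.28 ± 0.13 and 2.42 ± 0.20 (log2, SE) from the ends. Akr1c6, a steroid dehydrogenase, followed at 1170 ± 311, 782 ± 271 and 494 ± 124 CPM. Slc27a2, a fatty acid and bile acid ligase, was below the pericentral zone by a log2 difference of -0.15 ± 0.05 (edgeR adjusted p = 0.0383). Cyp2c70, which makes muricholic acids, had the pattern of Cyp8b1, with -0.10 ± 0.07 from the pericentral and 0.49 ± 0.07 from the periportal zone (edgeR adjusted p = 0.453 and 2.35e-06). Scp2, a sterol carrier, and Slc10a1, the bile acid importer of the sinusoidal side, differed from neither end by more than 0.11.

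The time of day was not used to choose the cells, so the middle zone could be tested for a 24-h rhythm. Cosine and sine terms of a 24-h period were fitted to its 10 sums with edgeR. They passed in 293 of 8879 genes (3.3%), and 1395 (15.7%) had an unadjusted p under 0.05. Fitted peaks lay within 3 h of ZT0 for 66 genes, of ZT6 for 43, of ZT12 for 69 and of ZT18 for 115. Of the 293, 148 also differed between the outer zones, as did 27.0% of all genes tested. With the replicate letter as a block the count was 460, with the 293 among them, and with the index number as a block it was 399, with 186 of the 293. Without ZT18A the count was 166 and without ZT18B 171. Both ZT18 libraries share an index number that no other library has, so the index and ZT18 cannot be told apart. The middle zones of ZT18A and ZT18B also lay nearest the periportal end, at a median of 81.49% and 71.86% of the way described above. The part of this place on the axis in the rhythms was not tested.

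Hamp2 was the rhythmic marker. Means were 219 ± 79.1 CPM at ZT0, 371 ± 116 CPM at ZT6, 143 ± 55.9 CPM at ZT12 and 33.1 ± 9.52 CPM at ZT18 (SD; n = 3, 2, 3 and 2), with a log2 amplitude of 1.71 (edgeR adjusted p = 0.00267) and its fitted maximum at ZT 5.04. Without both ZT18 libraries its amplitude was 1.18 (edgeR adjusted p = 0.133). Hamp had means of 952 ± 997, 631 ± 99.8, 622 ± 214 and 343 ± 41.1 CPM (edgeR adjusted p = 0.58), with a single ZT0 library at 2089 CPM. Igfbp2 (edgeR adjusted p = 0.79) and Cyp8b1 (0.284) did not pass either. Ccnd1 did, with 17.9 ± 2.99, 54.6 ± 12.4, 68.8 ± 26.9 and 20.2 ± 17.0 CPM at ZT0, ZT6, ZT12 and ZT18 (edgeR adjusted p = 0.00676), highest at ZT 9.54 in the fit.

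Of 18 clock genes tested, 12 were rhythmic in middle-zone cells, among them Arntl, Nr1d1, Per3, Dbp and Tef, against 3.3% of all genes. Against the pericentral zone 0 of 18 passed, against 14.4% of all genes, and 1 (Rora) was below the periportal zone, where 6.08% of all genes differed. The largest amplitudes named by the rule belonged to Hbb-bs, Dbp, Mt1, Mt2, Mfsd2a, Rgs16, Elovl3, Serpina3c, Chka and Usp2, and that of Hbb-bs rests on the 1 cell of ZT18B described above. With the index number as a block Hbb-bs and Serpina3c did not pass (edgeR adjusted p = 0.979 and 0.179). Mfsd2a, a carrier of lysophospholipids, measured 2.74 ± 1.98, 8.34 ± 3.57, 72.2 ± 17.7 and 25.4 ± 8.28 CPM at ZT0, ZT6, ZT12 and ZT18. Mt1, a metallothionein that binds zinc, ran from 7.80 ± 2.75 CPM at ZT18 to 452 ± 223 CPM at ZT12, and Elovl3, a fatty acid elongase, from 29.8 ± 32.6 CPM at ZT12 to 487 ± 331 CPM at ZT0. Mfsd2a lay below its periportal level by -0.86 ± 0.16 and Elovl3 above it by 1.08 ± 0.14 (log2, SE), so these rhythmic genes are also graded.

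**Figure D5:**
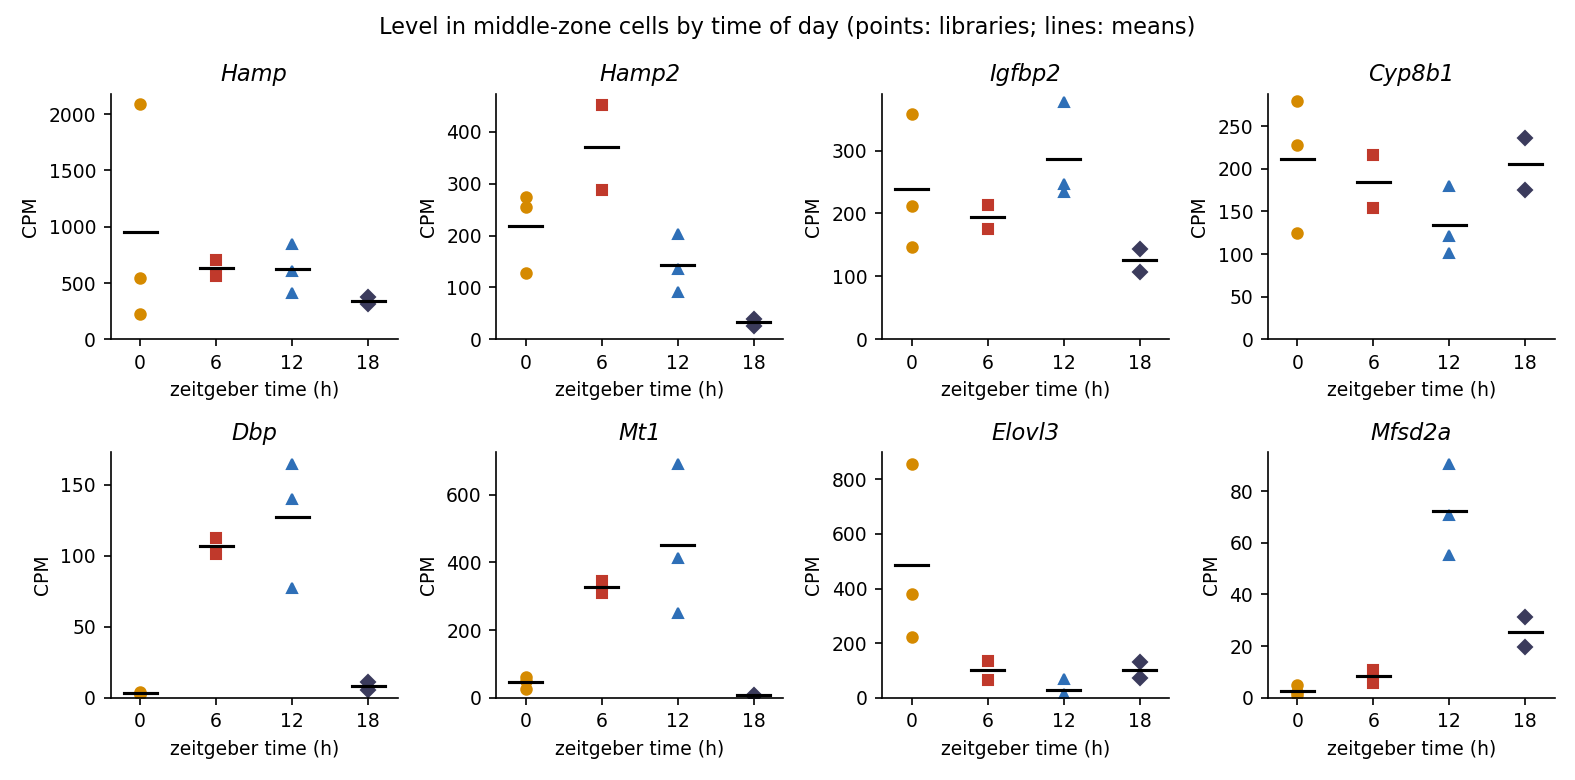
Level in CPM in middle-zone cells by zeitgeber time (h) for 8 genes; points are libraries (3, 2, 3 and 2) and lines their means. Hamp2 falls from 371 CPM at ZT6 to 33.1 CPM at ZT18, and the high ZT0 mean of Hamp comes from 1 library at 2089 CPM.

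Whether the difference of the middle from both ends itself changes over the day was tested on the 30 sums. The test called 0 of 8894 genes (0.0%), and 339 (3.81%) had an unadjusted p under 0.05. DESeq2 called 0 as well. The lowest edgeR adjusted p was 0.609, for Hbb-bs. The amplitude of this difference was 0.32 (log2) for Hamp, 0.32 for Hamp2 and 0.10 for Igfbp2, with an edgeR adjusted p of 1 for each. Hamp and Hamp2 were not above their pericentral zones in either ZT18 library. ZT18A and ZT18B had 390 and 173 CPM of Glul in that zone and Hamp differences of -0.19 and -0.21. ZT0A and ZT0B, with 374 and 369 CPM, had 0.21 and 0.37. The part of the Glul content in this was not tested. ZT18 and the index number 4 cannot be told apart.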

How the data were processed

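Single hepatocytes of 10 libraries were analysed. The authors deposited raw UMI counts per gene and cell, read as counts because they are whole numbers with unequal totals. Libraries were made with the 10x Chromium 3' kit v2, per the labels' protocols. The submitters' processing notes name Cell Ranger, mm10 and hg19 without their role. Not given in the sources used here are the annotation, how cells were filtered, and whether doublets were removed. No doublets were called; an alternative dropped the 5% of cells richest in UMIs. Cells are named by running numbers, so barcodes shared between libraries could not be counted.

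Counts were scaled to 10000 per cell, log-transformed and z-scored within each library, and the score, zones and Glul rule were applied. UMIs were summed per library and zone and fitted with edgeR 4.0.16 (R 4.3.3; glmQLFit, glmQLFTest, TMM) after removing genes whose mean was below 3 CPM. The threshold was an adjusted p of 0.05. DESeq2 1.42.0 was an alternative, as were other scalings, filters, cell sets, scores, widths and blocks. Fits were tested on simulated data. Middle-zone sums held 425210 to 2260405 UMIs, and the floor of 3 UMIs covers counting error only.

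The members, markers and gene lists were chosen with earlier results of these data known. Named were the 4 markers; called genes of at least 20 CPM that peaked or dipped in the middle in at least 8 libraries; the 10 largest rhythmic amplitudes; and per list the called genes and the 4 most abundant. Entries named Gm, LOC, Rik, -ps or Mup were only counted under the rules on calls (13 Mup and 24 Gm entries were rhythmic). Camk1d met the rule on calls; Hba-a1, Hba-a2 and Hbb-bs did not. Other names were chosen after their values were seen.

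Letters were checked for pairing by the correlation of deviations from group means. Over the 13 same-lettered pairs r was -0.034 to 0.29, so the letters do not pair all times. Between ZT0 and ZT12, whose same-lettered libraries also share index numbers, r was 0.115 (A), 0.29 (B) and 0.288 (C). Counts with the letter and with the index number as a block are therefore given beside the rhythm.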

Additional observations from a re-analysis of the deposited data

Results flagged for a closer look

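Values of 30 sets of 10 libraries were examined for a highest or lowest library far from the rest, and 7 were found. A library counts when its gap to the nearest other, divided by the whole range, exceeds Dixon's critical value of 0.466 for 10. Chance alone gives about 1 in 20 such sets.

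ZT12C had the most Glul in its pericentral zone, at 3843 CPM against 173 to 2096 CPM in the others. ZT0A had 2089 CPM of Hamp in its middle zone against 227 to 842 CPM. ZT12A had the largest middle-minus-periportal difference of Hamp, 1.41 on the log2 scale against -0.03 to 0.68, and of Igfbp2, 1.04 against 0.15 to 0.61. ZT18B had 164 CPM of Hba-a1, 161 CPM of Hba-a2 and 382 CPM of Hbb-bs in its middle zone, where the other 9 libraries had at most 1.23, 1.21 and 3.62 CPM, and 1 cell gave nearly all of these UMIs.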

How the results depend on the processing

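The count of 4 genes higher than both ends was 0 with DESeq2, with genes of at least 20 CPM alone, without the 5% of cells with the most UMIs, with cells between the quartiles of UMIs, without the cells rich in Hba-a1 and with no replicate block. It was 1 with the score on thinned cells, 2 with robust quasi-likelihood, 7 with z-scores and cuts over all libraries together, 6 with the cuts alone shared and 7 with each contrast adjusted on its own. With libraries left out in turn it was 0 (without ZT18B) to 6. The library is the block of this fit, and leaving the block out took Camk1d to an edgeR adjusted p of 1. The count of lower genes was 0 under each of these alternatives; with z-scores over all libraries and each contrast adjusted on its own, which combines 2 changes, it was 1 (Ddah1).

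The 293 rhythmic genes became 460 with the letter as a replicate block and 164 without both ZT18 libraries, of which 124 were among the 293. They ranged from 166 (without ZT18A) to 331 (without ZT0A) with libraries left out, and the index number as a block gave 399. The rhythm of the middle difference gave 2 genes with no CPM filter, and 0 to 1 with libraries left out.

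With cells at or below the median mitochondrial share, the smaller middle difference of Hamp turned to -0.046 and that of Cyp8b1 to 0.038. That of Hbb-bs turned to -0.52 with DESeq2, -1.27 without the 5% of cells with the most UMIs, -1.67 with cells between the quartiles of UMIs, -1.03 without the cells rich in Hba-a1 and -0.95 with z-scores and cuts over all libraries too. Except for the removal of the haemoglobin-rich cells, the causes were not tested. Igfbp2 passed for both ends together without ZT0C (edgeR adjusted p = 0.00811). Hamp2 passed with the middle of 5 zones against the outermost (edgeR adjusted p = 0.0205) and with low mitochondrial shares (edgeR adjusted p = 0.0494). Depth limits genes under about 7 CPM in the smallest library.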
